A study of Mus musculus with 8 samples.

Results

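The interferon-stimulated genes described here are *Stat2*, *Irf7*, *Irf9*, *Isg15*, *Ifit1*, *Ifit3*, *Bst2*, *Ifi35* and *Ifih1*. They were chosen by gene symbol, with earlier results of these data known. All 9 were present, and they are 9 of 12551 genes with counts. RNA was sequenced from whole tibialis anterior (TA) muscles, a fast-twitch muscle of the lower leg, of 7-week-old male mice. The control group held 4 wild-type (WT) mice. The mutant group held 4 mice homozygous for the Klotho mutation (KL-/-). Both genotypes were bred from heterozygous mice on a mixed background. Klotho is a transmembrane protein of the kidney and other organs that acts as a co-receptor for FGF23, and the mutation is present in every tissue, so effects that begin outside muscle cannot be told apart from effects within it. *Kl* itself is not among the 12551 genes, so the genotypes are those of the labels.

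Type I interferons are secreted when cells sense foreign nucleic acid. They bind a receptor made of Ifnar1 and Ifnar2, whose kinases Jak1 and Tyk2 phosphorylate STAT proteins. Stat2 and Irf9 then act within a complex that binds interferon-stimulated response elements in target promoters and raises their transcription. Many of these genes are also transcribed at a low tonic level in the absence of infection, and whole muscle contains macrophages, endothelial cells and fibroblasts beside its fibres.

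The core of the response element was searched in the RefSeq promoters of the members on GRCm38.p6, because the complex is known to act through it. All 9 members had a promoter window, 10 windows in all, each from 250 bases before to 50 bases after a RefSeq start. The core was written GAAANNGAAA, or TTTCNNTTTC on the other strand, and 6 of the 9 members held it, whereas 3.44% of all 32851 promoter windows did. In 5 members it lay before the start. Those stretches are shown 5′ to 3′ on the strand of the gene, with every base of a match in capitals and positions counted from the start, which is 0.
*Stat2*, chr10:128270251-128270310, plus strand, from -247 to -188: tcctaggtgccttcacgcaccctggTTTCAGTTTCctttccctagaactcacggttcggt
*Isg15*, chr4:156200850-156200921, minus strand, from -103 to -32: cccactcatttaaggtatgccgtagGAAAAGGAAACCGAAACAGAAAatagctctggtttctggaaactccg
*Ifit1*, chr19:34640760-34640838, plus strand, from -129 to -51: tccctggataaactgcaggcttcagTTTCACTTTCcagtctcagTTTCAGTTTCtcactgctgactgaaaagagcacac
*Ifit3*, chr19:34583348-34583441, plus strand, from -181 to -88: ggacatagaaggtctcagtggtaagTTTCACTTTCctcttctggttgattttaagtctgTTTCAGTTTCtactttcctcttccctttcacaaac
*Bst2*, chr8:71537562-71537627, minus strand, from -155 to -90: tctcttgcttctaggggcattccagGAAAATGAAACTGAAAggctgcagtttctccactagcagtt

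*Isg15* held 3 matches, each overlapping the next, *Bst2* held 2 that overlap, *Ifit1* and *Ifit3* held 2 separate matches each, and *Stat2* held 1. The same letters, TTTCACTTTC and then TTTCAGTTTC, occurred in this order in *Ifit1* and *Ifit3*. The sixth member was *Ifih1*, with GAAACAGAAA at 32 to 41 bases after its start. *Irf7*, *Irf9* and *Ifi35* had no match in these windows. The core of a STAT dimer site, TTCNNNGAA, which reads the same on both strands, was found in *Ifi35* as TTCACAGAA at 7 to 15 bases after the start and in *Bst2* as TTCCAGGAA from -136 to -128, where it overlaps the first response element match. That core was found in 8.30% of all windows. These matches are letters in a window and were not tested as binding sites.

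Counts on genes summed to 20860262 to 29273758 per library. Values are given as CPM, counts scaled to library size, with sizes adjusted by the TMM method (a trimmed mean of gene ratios). On this scale 3 counts correspond to 0.105 to 0.143 CPM. Genes were compared between genotypes with edgeR's quasi-likelihood test, and the adjusted p (FDR) was calculated over all 12551 genes. Skeletal muscle markers were at a high level in every library. The 10 fibre genes listed, among them *Acta1* and *Ckm*, summed to 142306 to 162398 CPM across WT mice. Across KL-/- mice they summed to 169657 to 209848 CPM, so the genotypes did not overlap. Of these 10 genes, 9 had a positive log2 fold change and 1, *Actn3*, was higher in KL-/- muscle at an FDR under 0.05. The labels give 1 batch date for 7 libraries and a different one for KL-/- replicate 3, so for this mouse batch and animal cannot be told apart.

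All 9 members had a lower fitted level in KL-/- than in WT muscle, and 1 of them, *Ifi35*, passed the threshold of 0.05. Over all genes 6.67% were lower past this threshold, 7.35% were higher, 14.0% in either direction, and 52.4% had a negative log2 fold change. The median log2 fold change of the members was -0.51, and that of all genes was -0.016. The log2 fold changes of the members ran from -0.63 to -0.067. *Ifi35* was also the 1 member of 9 whose genotypes did not overlap, with all KL-/- samples below all WT samples, an order found in 9.47% of all genes, with 19.7% not overlapping in either direction. At an unadjusted p under 0.05, 4 of the 9 members were lower, compared with 16.4% of all genes. 0 members were higher at an FDR or an unadjusted p under 0.05, and DESeq2 called *Bst2* and *Ifi35* lower, where it called 9.11% of all genes lower. Within whole muscle, fewer cells of a type and less RNA per cell cannot be told apart, here and for every gene below.

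**Figure D1:**
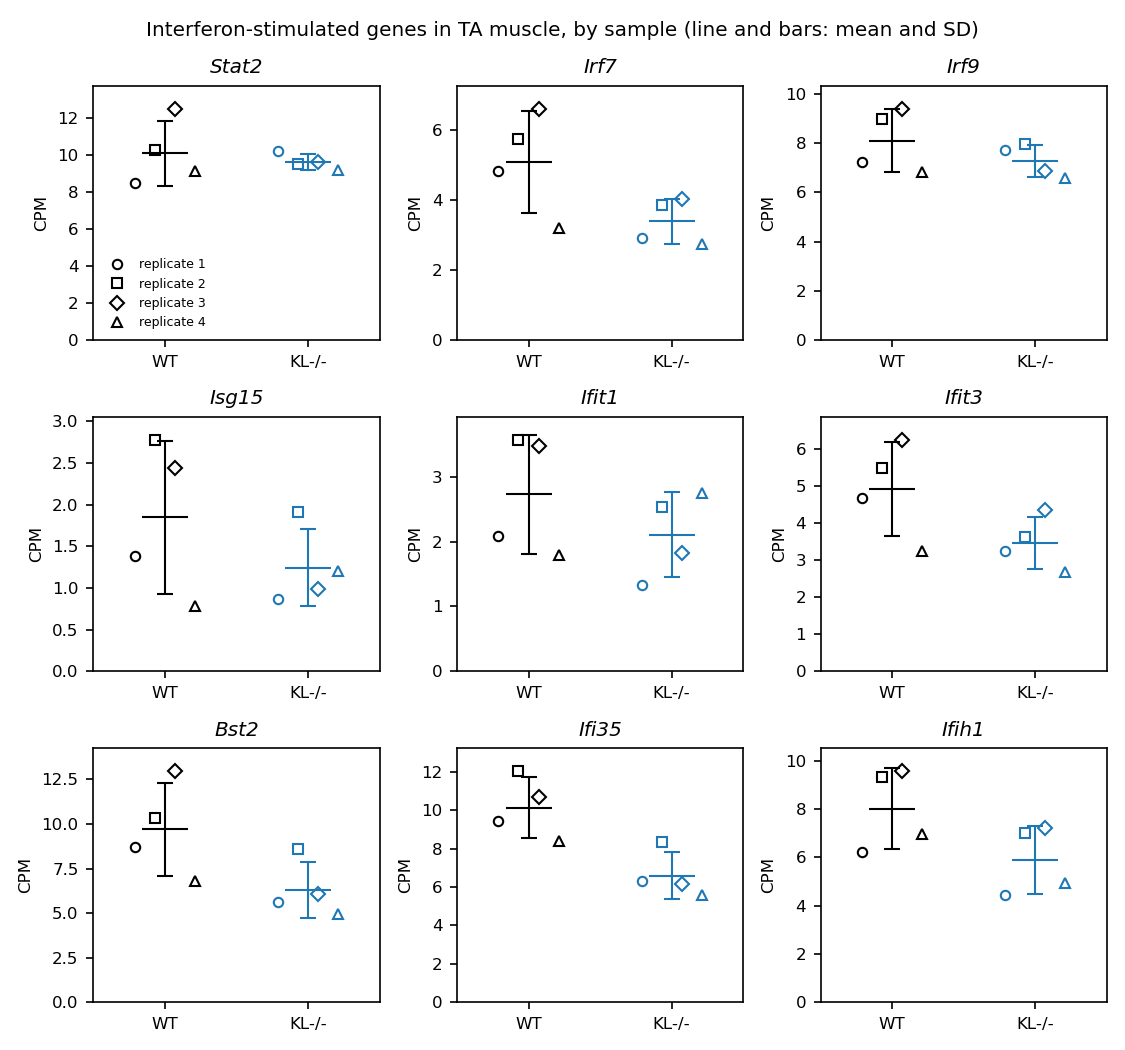
CPM (TMM-scaled, linear axes from 0) of the 9 members in each of 4 WT (black) and 4 KL-/- (blue) TA muscles, with the replicate number given by the symbol and the mean and SD by the line and bars. In each panel the highest sample is WT replicate 2 or WT replicate 3, and only *Ifi35* has no overlap between the genotypes.

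*Ifi35* encodes a leucine zipper protein of the interferon response that binds Nmi. It lies on chromosome 11, 101448412 to 101458701 of mm10. It was at 9.43, 12.0, 10.7 and 8.39 CPM in WT replicates 1 to 4 and at 6.31, 8.35, 6.13 and 5.58 CPM in KL-/- replicates 1 to 4. The gap between the genotypes, from WT replicate 4 to KL-/- replicate 2, was narrow. WT mice averaged 10.1 ± 1.57 CPM and KL-/- mice 6.59 ± 1.21 CPM (SD, n = 4), and the fitted level was 35.0% lower. In log2 units this was -0.62 with a standard error of 0.15 (FDR = 0.0289). Leaving out 1 sample at a time kept the log2 fold change between -0.74 and -0.53, but the FDR went above 0.05 without WT replicate 2 or 3 or KL-/- replicate 1, 3 or 4, up to 0.0812. *Gm11626*, which is annotated on the other strand, overlaps *Ifi35*, and whether reads were counted by strand is not given in the sources used here.

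*Stat2*, *Irf9* and *Irf7* are the transcription factors among the members. *Stat2* (chromosome 10, 128270576 to 128292849) encodes a subunit of the interferon-activated complex. Its values were 8.53, 10.3, 12.5 and 9.14 CPM in WT replicates 1 to 4 and 10.2, 9.54, 9.66 and 9.20 CPM in KL-/- replicates 1 to 4. All KL-/- samples lay within the range of the WT samples. The log2 fold change was -0.067 with a 95% interval from -0.34 to 0.21 (FDR = 0.740), and without WT replicate 3, the highest sample, it turned to 0.053. *Irf9* (chromosome 14, 55603985 to 55610030), the DNA-binding subunit of the same complex, was at 7.23, 8.97, 9.38 and 6.81 CPM in WT and at 7.71, 7.97, 6.88 and 6.60 CPM in KL-/- replicates 1 to 4. The genotypes overlapped, with a log2 fold change of -0.15 and a 95% interval from -0.44 to 0.14 (FDR = 0.447).

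*Irf7* (chromosome 7, 141263183 to 141266424) encodes the factor that amplifies interferon gene transcription after a first wave of signaling. It was at 4.82, 5.74, 6.60 and 3.19 CPM in WT replicates 1 to 4 and at 2.93, 3.86, 4.02 and 2.75 CPM in KL-/- replicates 1 to 4. WT replicate 4 lay among the KL-/- samples and the other 3 WT samples lay above all of them. WT mice averaged 5.09 ± 1.46 CPM, compared with 3.39 ± 0.643 CPM for KL-/- mice (SD, n = 4). *Irf7* did not pass the threshold (log2 fold change -0.59, standard error 0.23, FDR = 0.113). It did so when WT replicate 4 was left out (-0.76, FDR = 0.0340). The 95% intervals of *Stat2* and *Irf7* overlap, and the difference between their fold changes was not tested.

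Among the antiviral effectors, *Bst2* (chromosome 8, 71534262 to 71537437) encodes tetherin, a membrane protein that holds budding virus particles on the cell surface. It was at 8.70, 10.4, 13.0 and 6.81 CPM in WT replicates 1 to 4 and at 5.61, 8.59, 6.05 and 4.94 CPM in KL-/- replicates 1 to 4. KL-/- replicate 2 lay above WT replicate 4, and the other 3 KL-/- samples lay below all WT samples. Its log2 fold change, -0.63 with a 95% interval from -1.13 to -0.14, was the most negative of the members but did not pass the threshold (FDR = 0.0847). The FDR was under 0.05 without WT replicate 4 or without KL-/- replicate 2, where it was lowest at 0.0318.

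*Ifit3* and *Ifit1* encode tetratricopeptide repeat proteins that act on foreign RNA, and they lie near each other on chromosome 19. *Ifit3* (34583529 to 34588982) was at 4.70, 5.50, 6.25 and 3.26 CPM in WT replicates 1 to 4 and at 3.24, 3.63, 4.35 and 2.68 CPM in KL-/- replicates 1 to 4. As for *Irf7*, WT replicate 4 lay among the KL-/- samples. Its log2 fold change was -0.51 with a 95% interval from -0.995 to -0.015 (FDR = 0.146). *Ifit1* (34640889 to 34650009) was at 2.08, 3.56, 3.47 and 1.79 CPM in WT and at 1.33, 2.53, 1.82 and 2.75 CPM in KL-/- replicates 1 to 4. The genotypes overlapped widely, and the log2 fold change of -0.37 had a 95% interval from -1.04 to 0.29 (FDR = 0.411). *Ifit3* has a near-identical neighbouring copy, *Ifit3b*, from which its reads may not have been separable, so the level of each is uncertain. *Ifit3b*, named here for this reason after its values were seen, averaged 3.05 CPM for WT and 1.75 CPM for KL-/- mice (log2 fold change -0.80, FDR = 0.0715).

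*Isg15* (chromosome 4, 156199424 to 156200818) encodes a ubiquitin-like protein that is attached to other proteins during the interferon response. It had the lowest counts of the members, at 34, 60, 64 and 22 in WT and 25, 40, 24 and 32 in KL-/- replicates 1 to 4. This corresponds to 1.39, 2.78, 2.44 and 0.789 CPM for WT and to 0.872, 1.91, 0.995 and 1.21 CPM for KL-/- muscles. The lowest sample of all 8 was WT replicate 4 and the highest was WT replicate 2, so the WT range enclosed the KL-/- range. The log2 fold change was -0.57 with a 95% interval from -1.47 to 0.32 (FDR = 0.346), and its SD within genotypes on the log2 scale, 0.65, was the highest of the members.

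*Ifih1* (chromosome 2, 62595793 to 62646255) encodes MDA5, a cytosolic sensor of long double-stranded RNA. It was at 6.21, 9.34, 9.57 and 6.96 CPM in WT replicates 1 to 4 and at 4.43, 7.01, 7.21 and 4.94 CPM in KL-/- replicates 1 to 4. In each genotype a pair of samples was high and a pair was low, and the higher KL-/- pair lay above the lower WT pair. WT mice averaged 8.02 ± 1.69 CPM and KL-/- mice 5.90 ± 1.42 CPM (SD, n = 4), with a 95% interval of the log2 fold change from -0.90 to 0.0013 (FDR = 0.157).

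Levels of different genes were compared per kilobase of exon. *Bst2* was the highest member in both genotypes, at 12.7 ± 3.41 CPM per kb for WT and 8.22 ± 2.08 CPM per kb for KL-/- mice (SD, n = 4). *Ifi35* was the second, at 7.45 ± 1.16 and 4.85 ± 0.891 CPM per kb. *Irf9* was the third, at 3.01 ± 0.471 and 2.71 ± 0.243 CPM per kb. The sample ranges of these neighbours did not overlap, with *Ifi35* below *Bst2* and *Irf9* below *Ifi35*, in either genotype. Below them in WT, *Irf7*, *Ifit3*, *Isg15* and *Stat2* followed at 2.74 to 2.30 CPM per kb with overlapping ranges. In KL-/- muscle *Stat2* came directly after *Irf9*, at 2.20 CPM per kb with no overlap with it, and *Irf7*, at 1.82 CPM per kb, *Ifit3* and *Isg15* followed with overlapping ranges. *Ifih1* and *Ifit1* were the lowest in both, at 1.45 and 1.03 CPM per kb for WT and at 1.07 and 0.799 CPM per kb for KL-/- mice, with overlapping ranges, and the range of *Ifih1* lay below that of *Stat2* in WT mice. In CPM, the members lay between the 9.66 and 38.9 percentiles of all genes counted, so each was below the median gene.

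The members varied together between mice of one genotype. WT replicate 3 was the highest sample in 6 of the 9 members and WT replicate 2 in the other 3. KL-/- replicate 4 was the lowest in 5. Averaged over the members, log2 CPM was 2.36, 2.80, 2.87 and 2.09 in WT replicates 1 to 4 and 1.94, 2.39, 2.16 and 1.99 in KL-/- replicates 1 to 4. KL-/- replicate 2 thus lay above WT replicates 1 and 4. After subtraction of the genotype means, the 36 pairs of members had a median Pearson correlation of 0.69 over 8 samples, from 0.39 for *Stat2* and *Ifi35* to 0.97 for *Irf7* and *Ifit3*, given as a description since the samples share libraries and scaling. The SD of log2 CPM within a genotype had a median of 0.35 over the members, from 0.17 for *Stat2* to 0.65 for *Isg15*, compared with a median of 0.16 over all genes.

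**Figure D2:**
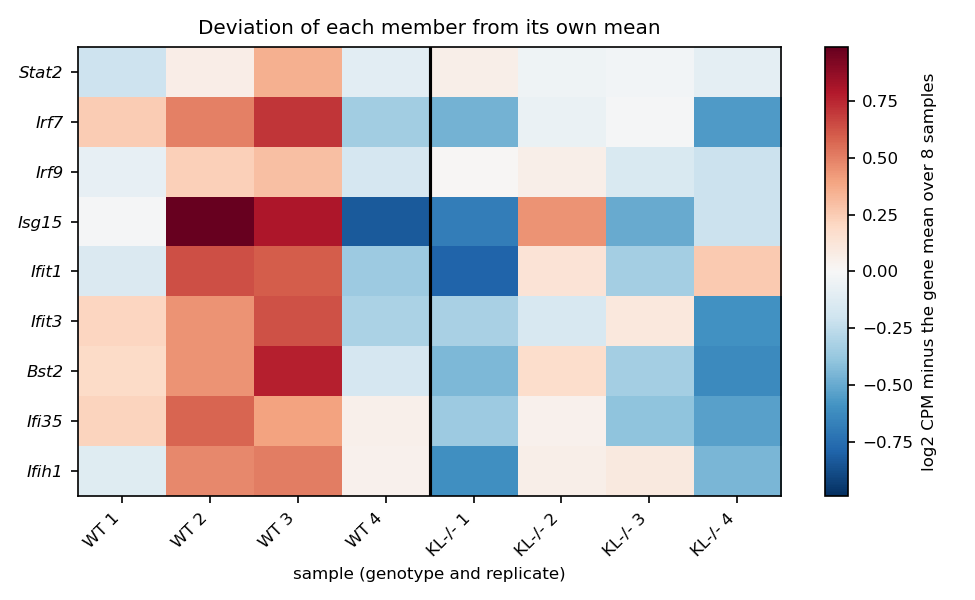
log2 CPM of each member, without a prior count, minus its own mean over the 8 samples, with samples in columns by genotype and replicate and genes in rows. WT replicates 2 and 3 are above the mean in all 9 members, and KL-/- replicate 4 is below it in all but *Ifit1*.

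Markers of some other cell types in the muscle also differed between the genotypes, and their part in the results was not tested. Of 18 macrophage and monocyte markers listed, 15 were counted, 5 of them were lower in KL-/- muscle past the threshold and 0 were higher. They summed to 78.3 to 164 CPM across WT mice and to 52.7 to 93.0 CPM across KL-/- mice, and the highest samples were WT replicates 3 and 2, as for the members. KL-/- replicate 1 had the lowest mean level of the members and a macrophage marker sum of 93.0 CPM, above the 87.2 and 78.3 CPM of WT replicates 1 and 4. Of the 15 markers, 14 had a negative log2 fold change. The other was *Mrc1*, at a mean of 16.9 CPM for WT and 18.8 CPM for KL-/- mice. *Lyz2*, at a mean of 31.7 CPM for WT and 19.6 CPM for KL-/- mice, and *Mrc1* had the highest means of these markers in both genotypes. The sum thus weighs *Lyz2* and *Mrc1* most, and markers at a low level, such as *Cx3cr1* and *Adgre1*, hardly enter it. *Fcgr1*, *Aif1* and *Ly6c2* were not among the counted genes. The 6 fibroblast markers, of which 3 were lower, summed to 1189 to 3419 CPM across WT mice and to 587 to 1515 CPM across KL-/- mice, also with WT replicates 3 and 2 highest. Most of the fibroblast sum was *Col3a1*, *Gsn* and *Col1a1*. The 8 endothelial markers, of which 1 was lower, summed to 534 to 774 CPM across WT mice and to 525 to 548 CPM across KL-/- mice. None of the 9 lymphocyte markers listed, such as *Cd3e*, was among the counted genes. Of 5 plasmacytoid dendritic cell markers, *Siglech* and *Ccr9* were not counted, and the other 3, *Bst2* included, summed to 89.5 to 110 CPM across WT mice and to 76.8 to 86.5 CPM across KL-/- mice. Most of this sum was *Tcf4*, at a mean of 83.4 CPM for WT and 69.1 CPM for KL-/- mice. The sum is thus no measure of these cells, and none of the 3 passed the threshold. By contrast, the 4 Schwann cell markers summed to 30.1 to 55.6 CPM across WT mice and to 61.3 to 79.4 CPM across KL-/- mice, with 2 of them higher past the threshold, and the 3 adipocyte markers counted, 1 of them higher, to 184 to 212 and 214 to 279 CPM. Most of the adipocyte sum was *Fabp4*, the 1 that passed, at a mean of 187 CPM for WT and 225 CPM for KL-/- mice. *Adipoq* (FDR = 0.218) and *Cfd* (FDR = 0.258) did not pass, and their genotypes overlapped. When raw library totals replaced the TMM factors, the median over all genes was -0.13 on the log2 scale, and the share of higher genes among those past the threshold went from 52.4% to 18.8%. A change of library factors shifts all genes by nearly the same amount. The median of the members less that of all genes, -0.49 on both scales, could therefore hardly change and tests nothing.

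To place the members in their pathway, 117 other interferon genes were listed by role. 97 of these were counted, 13 were lower in KL-/- muscle past the threshold, 13.4% compared with 6.67% of all genes, and 0 were higher (1 at an unadjusted p under 0.05, and 0 with DESeq2). 85 of the 97 had a negative log2 fold change, and their median was -0.34. The lists were chosen with earlier results of these data known, so these shares are a description and not a test. *Mx1*, *Mx2*, *Oas3* and *Cxcl10*, which are strongly induced by interferon, were not among the counted genes, so no level can be given for them.

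**Figure D3:**
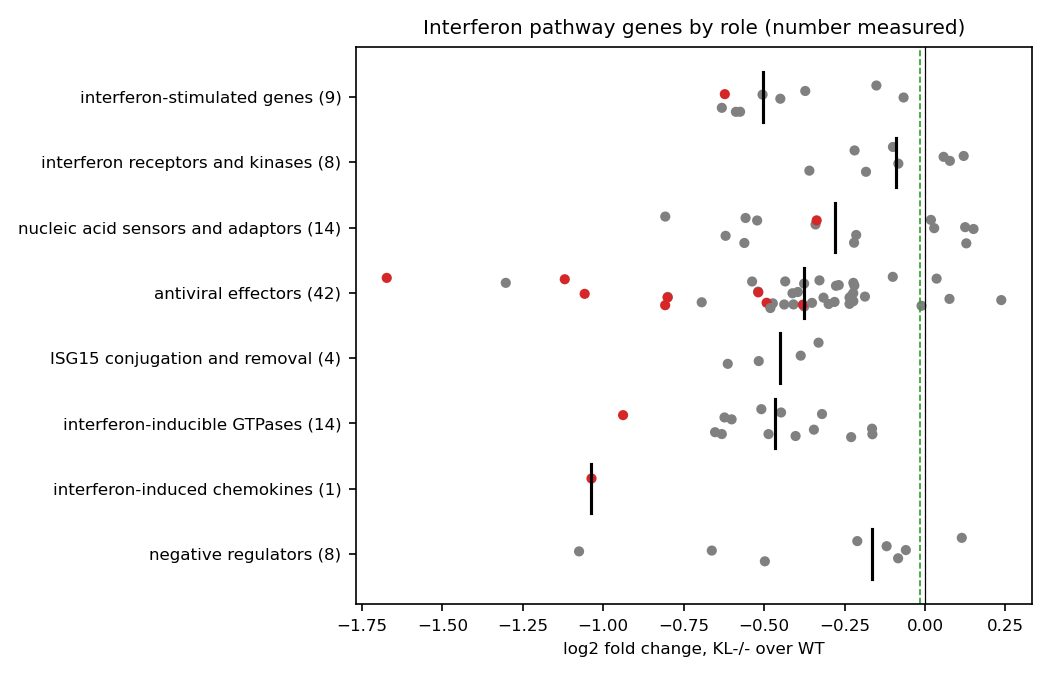
log2 fold change (KL-/- over WT) of the counted interferon genes other than the transcription factor list, 1 point per gene, in rows by role with the number counted, red where the FDR was under 0.05. Black bars are the medians, -0.51 for the members at the top, and the dashed green line is the median of all genes, -0.016. All red points lie below 0.

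At the receptor level, none of the 8 counted receptor and kinase genes passed the threshold with edgeR or DESeq2, 1 was lower at an unadjusted p under 0.05, and their median log2 fold change was -0.091. *Ifnar1*, which encodes a chain of the type I receptor, averaged 21.9 ± 3.68 CPM for WT and 20.5 ± 2.62 CPM for KL-/- mice (SD, n = 4), with a 95% interval of the log2 fold change from -0.40 to 0.20. *Ifnar2*, the other chain, had a log2 fold change of -0.36 with an interval from -0.82 to 0.10. The kinase genes *Jak1* (log2 fold change -0.18, FDR = 0.168) and *Tyk2* (0.077, FDR = 0.653) did not pass either. Genes overlap *Ifnar2* (*Gm21970*) and *Jak1* (*Gm12785*) on the same strand. On the other strand, genes overlap *Jak1* (*Raver2* and *Gm24468*) and *Tyk2* (*1700084C06Rik*). The counts of *Ifnar2*, *Jak1* and *Tyk2* are uncertain to that extent.

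Among the other transcription factors of the pathway, *Irf5* was lower past the threshold. This factor, which acts downstream of Toll-like receptors, was at 33.2, 34.5, 35.6 and 47.4 CPM in WT and at 14.4, 10.3, 15.5 and 14.4 CPM in KL-/- replicates 1 to 4. It fell by 63.7% (FDR = 0.00226), and the lowest WT sample was above all KL-/- samples by a wide margin.

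Among 14 other nucleic acid sensors and adaptors, *Trim25*, a ubiquitin ligase that activates RIG-I, was lower (log2 fold change -0.34, FDR = 0.0455) and 13 did not pass. Among 42 other antiviral effectors, 8 were lower and 34 did not pass. *Oas1a* and *Oas2* encode enzymes that make the 2-5A messenger of RNase L. *Oas1a* was counted 16, 24, 44 and 29 times in WT and 5, 8, 6 and 16 times in KL-/- replicates 1 to 4, too few to fix the size of its log2 fold change of -1.67 (95% interval from -2.62 to -0.73). *Oas2* fell from 2.47 ± 0.458 to 1.19 ± 0.247 CPM (log2 fold change -1.06, FDR = 0.0142), and *Ifi44* from 3.61 ± 1.37 to 1.66 ± 0.273 CPM (log2 fold change -1.12, FDR = 0.0283; SD, n = 4). *Slfn5* belongs to the Schlafen family, and *Ly6e* encodes a membrane-anchored protein that affects virus entry. *Slfn5* fell from 76.2 ± 7.56 to 53.3 ± 4.20 CPM (FDR = 0.0075) and *Ly6e* from 68.1 ± 9.98 to 52.3 ± 2.66 CPM (FDR = 0.0343).

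*Dtx3l*, a ubiquitin ligase that works with Parp9, fell by 42.6% (log2 fold change -0.80, FDR = 0.00857), and *Lgals3bp*, a secreted galectin-binding glycoprotein, fell by 42.9% (log2 fold change -0.81, FDR = 0.0257). *Ifi27* fell by 28.9% (FDR = 0.0308), the 1 gene of the 13 whose genotypes overlapped. Genes overlap *Dtx3l* (*Parp9*), *Oas2* (*Gm43068*) and *Slfn5* (*Slfn5os*) on the other strand and *Gbp6* (*Gm43302*) on the same strand, and the counts of all 4 are uncertain to that extent. Of 14 interferon-inducible GTPases, all of which had a negative log2 fold change, *Gbp6* passed (log2 fold change -0.94, FDR = 0.0324) and 13 did not. *Cxcl9*, the 1 counted chemokine of 5 listed, was at 3.27, 3.24, 4.69 and 3.48 CPM in WT and at 1.33, 2.62, 1.87 and 1.47 CPM in KL-/- replicates 1 to 4 (log2 fold change -1.04, FDR = 0.0199). *Cxcl9*, which draws T cells and is induced chiefly by interferon gamma, did not overlap between genotypes. *Oas1a*, *Gbp6* and *Ifi27* belong to families of closely similar genes, between which reads could have been split.

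None of the 4 genes of ISG15 conjugation and removal passed with edgeR or DESeq2, with 1 at an unadjusted p under 0.05, although all 4 had a negative log2 fold change. That 1 gene was *Usp18*, which removes Isg15 and blocks the receptor and which *Gm44148* overlaps on the other strand, at 1.88, 2.22, 1.98 and 1.69 CPM in WT and 1.29, 1.62, 1.20 and 0.980 CPM in KL-/- replicates 1 to 4. The groups did not overlap, but the log2 fold change of -0.61 had an FDR of 0.0628. The RNA-activated kinase gene *Eif2ak2* (log2 fold change -0.41, FDR = 0.154) and *Ifitm3*, which blocks virus fusion (log2 fold change -0.38, FDR = 0.0865), did not pass. *Gm26637* and *n-R5s29* overlap *Eif2ak2* on the other strand. None of the 8 negative regulators passed with edgeR (1 with DESeq2), with 1 lower at an unadjusted p under 0.05, and their median log2 fold change was -0.16.

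**Figure D4:**
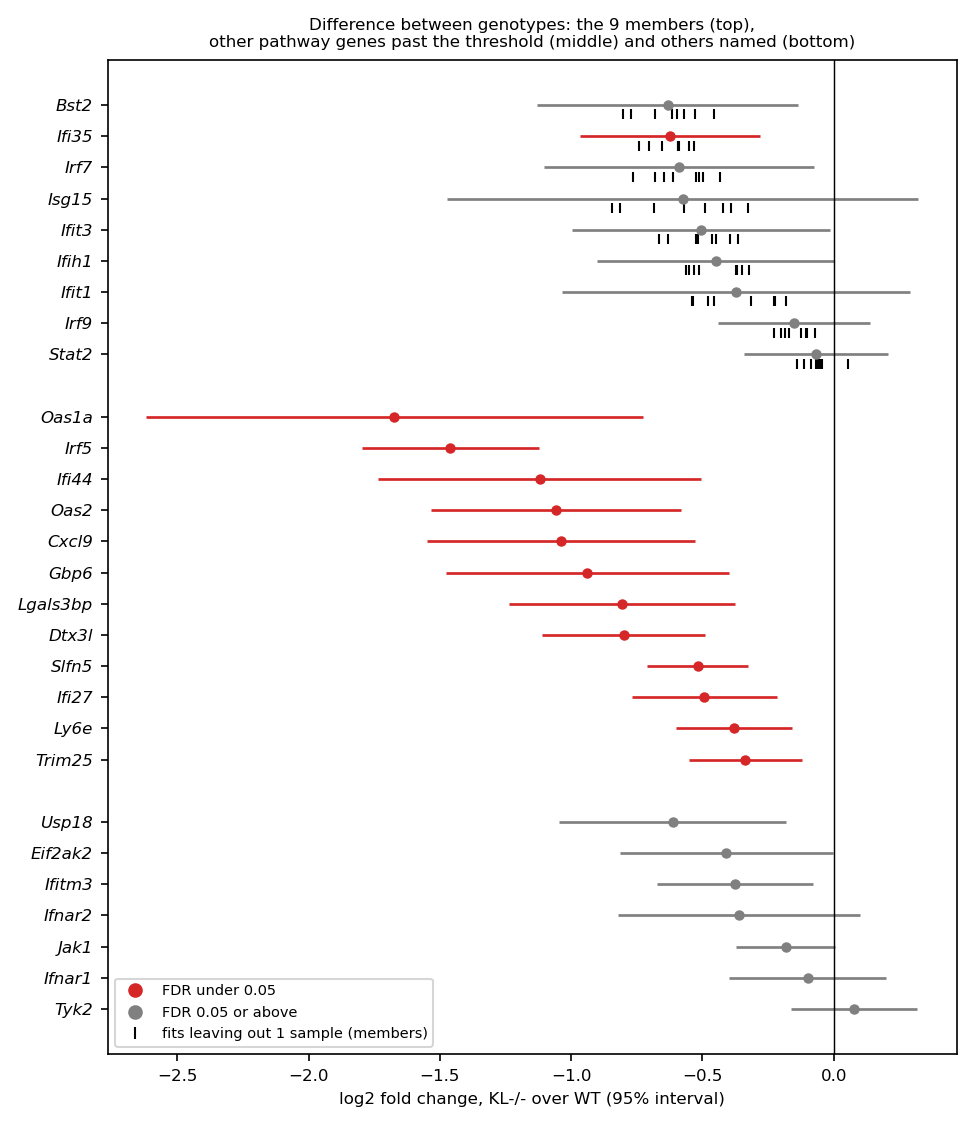
log2 fold change (KL-/- over WT) with its 95% interval for the 9 members (top), the other pathway genes named that had an FDR under 0.05 (middle) and the other named pathway genes (bottom), red where the FDR was under 0.05. Ticks, drawn for the 9 members only, give the 8 fits that left out 1 sample each. *Ifi35* is the red member, and the ticks of *Stat2* reach 0.053.

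Many of the calls were lost when 1 library was left out, and not only among these genes. Over all 12551 genes, 1759 passed with every sample, compared with 762 without KL-/- replicate 3, 775 without WT replicate 3, 780 without WT replicate 2, 778 without KL-/- replicate 4, 1224 without KL-/- replicate 1, 1368 without WT replicate 4 and 2755 without KL-/- replicate 2. 0 of the 9 members and 4 of the 13 other genes, *Irf5*, *Dtx3l*, *Oas2* and *Slfn5*, passed in every one of the 8 refits with a sample left out. Without KL-/- replicate 3, the library of the other batch date, 0 members (5 at an unadjusted p under 0.05) and 7 of the 97 other genes passed, while the median log2 fold change of the members was -0.56. Without WT replicate 3, the median was -0.36, 0 members passed (1 at an unadjusted p under 0.05) and 5 other genes did. With WT replicate 2 left out 8 other genes passed and with KL-/- replicate 4 left out 6 did, in each case with 0 members (2 and 1 at an unadjusted p under 0.05). With KL-/- replicate 1 left out, 0 members passed as well (1 at an unadjusted p under 0.05). With WT replicate 4 left out, *Irf7*, *Bst2* and *Ifi35* passed, and with KL-/- replicate 2 left out, *Bst2* and *Ifi35* did, together with 20 other genes, 19 of them lower and 1 higher (*Daxx*, chosen after its values were seen).

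Outside the members, the 6 genes whose log2 CPM, centred within genotype, followed the centred mean of the members most closely over the 8 samples were *Etv5* (Pearson r = 0.98), *Pml* (0.98), *B3gnt9* (0.97), *Zcchc3* (0.97), *Tmem8c* (0.97) and *Smc1a* (0.97), out of 11907 genes with a mean of at least 1 CPM. *Pml*, which encodes the organizer of interferon-inducible nuclear bodies, is the 1 gene of these that is on the pathway lists. Its log2 fold change was -0.32 (FDR = 0.140), whereas *Etv5*, an ETS family transcription factor, was higher in KL-/- muscle (log2 fold change 0.41, FDR = 0.0394). These correlations are the highest of many over 8 samples that share libraries and are a description.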

How the data were processed

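RNA from TA muscles of 4 WT and 4 KL-/- mice was sequenced by the authors, with libraries made from mRNA per the methods and from total RNA per the labels. They used STAR for alignment (mm10) and featureCounts for counting. The deposited values are raw counts for 12551 genes, with an exon length per gene. A gene outside this set has no value here, and shares and percentiles of all genes refer to this set. The annotation release and strand setting are not given in the sources used here. Genotypes and replicate numbers come from the labels, which tie no WT mouse to a KL-/- mouse.

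Counts were fitted in R 4.3.3 with edgeR 4.0.16 (default low-count filter, which kept all 12551 genes, TMM factors, genotype as the only term, quasi-likelihood test, Benjamini-Hochberg adjustment, FDR under 0.05). Standard errors and 95% intervals were taken from the test statistic. Mean log2 CPM per sample used a prior count of 2. The test was checked on simulated counts with 200 changed genes. No pair of libraries of a genotype was a duplicate (chi-square per gene 9.91 or more). The members and gene lists were chosen with earlier results of these data known, and the other genes named are those of the lists past the threshold, 7 fixed others and the 6 most similar in pattern. Alternatives were RLE factors, library totals, DESeq2 1.42.0, the edgeR 3 quasi-likelihood method (chosen after seeing the data), other filters, the replicate number as a block, and leaving out each sample. Intervals cover the spread between these samples. Reads were not analysed here. Some genes that the rule or the lists hold are not reported here by name, though counts over lists include them.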

Additional observations from a re-analysis of the deposited data

Results flagged for a closer look

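In 58 groups of 4 samples, 1 per genotype for each member and each of the 20 other pathway genes the rule gives, a sample stood far from the other 3 in 3 groups, where chance alone gives about 1 in 20. *Irf5* was at 47.4 CPM in WT replicate 4 and at 33.2 to 35.6 CPM in the other WT samples. *Cxcl9* was at 4.69 CPM in WT replicate 3 and at 3.24 to 3.48 CPM in the others. *Jak1* was at 218.9 CPM in KL-/- replicate 2 and at 171 to 176 CPM in the other KL-/- samples. None of the 9 members was among them.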

How the results depend on the processing

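Of 135 refits of the members, 124 kept the direction and the side of the threshold, 5 moved a member past it, 5 lost the call of *Ifi35* and 1 turned the sign, that of *Stat2* (-0.14 to 0.053 with 1 sample left out, above 0 without WT replicate 3). Most of the 124 are genes that stayed above the threshold value, since 8 of the 9 members had not passed in the main fit. The refits without a filter repeat the main fit, because the filter had kept all genes. The count of members past the threshold was 1 with edgeR and 2 with library totals or DESeq2, and 0 to 3 with 1 sample left out. The count of the other pathway genes was 13, 32 with library totals, 21 with DESeq2 and 5 to 20 with 1 sample left out. Over all genes 1759 passed, 2619 with library totals, 2456 with DESeq2, 671 with the replicate number as a block and 762 to 2755 with 1 sample left out. With library totals 18.8% of the genes that passed were higher, compared with 52.4% in the main fit, so calls of lower genes rose over all genes too. The median log2 fold change of the members ranged from -0.67 to -0.36 over the fits that left out 1 sample. Deviations from the genotype means of samples with the same replicate number correlated across genes at -0.146, 0.181, -0.368 and 0.017. These values showed no steady pairing by number, but they cannot exclude one. With the block, 1 member and 10 of the other genes passed, and no member changed its call. At an unadjusted p under 0.05, 5 members were lower with the block and 4 without it. The standard error went from 0.20 to 0.11 for *Ifih1* and from 0.12 to 0.13 for *Stat2*. The cause of these differences was not tested. *Isg15* had the lowest counts, 22 to 64 per library, and the widest spread between mice, and which of these limits it was not tested.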
